A study of Mus musculus with 229 samples.

Results

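The nuclear factor I (NFI) family consists of 4 genes in the mouse, Nfia, Nfib, Nfic and Nfix. They were taken by symbol from every expression table, 4 of the 49268 gene symbols listed over all tables, and their spans were looked up in the list of open chromatin. All 4 were listed in each table and passed the count minimum in each comparison. The 229 samples fell into 10 groups. Mouse tumours labelled glioblastoma, from the region of the cerebral cortex, were sampled at dpi 25 with Drop-seq and at dpi 35 with 10x, as 1 library each. The labels do not expand dpi, state no sort for the tumours and name no alteration that started them. Cerebral cortex of PDGFRa-GFP pups, postnatal days 1 to 3, and of hGFAP-GFP pups, postnatal days 5 to 6, gave 1 Drop-seq library each. In these reporter lines GFP is driven by the promoter of Pdgfra, a receptor of oligodendrocyte precursor cells (OPCs), or by a human GFAP promoter, which is active in astrocytes and neural progenitors. Both genotypes are otherwise labelled normal, and GFP-positive living cells were sorted. Single cells captured on the C1 chip formed 4 sets. For PDGFRa-GFP these held 53 cells from P6 and 60 from P3, and for hGFAP-GFP 61 cells from P4 to P6 and 49 from P3. ATAC-seq, which marks open chromatin, of sorted PDGFRa-GFP cells, with E14.5 and P5 in the titles, was deposited as 1 pooled list, so the stages cannot be compared. No label names the animals, and each library or C1 set was treated as 1 sample, so differences are given without tests.

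NFI proteins bind DNA as dimers, and each partner contacts the core TTGGC of a palindromic site, in which TTGGC, any 5 bases and GCCAA follow each other. Nfia and Nfib are known for the switch of cortical progenitors to making glia, Nfia also for astrocyte genes such as Gfap, and Nfix for the timing of progenitor division and of neuron production. Nfic is best known for tooth root formation and is not a classical regulator of brain development.

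The RefSeq promoter table (GRCm38.p6) holds 6 windows of the family, 4 for Nfix and 1 each for Nfia and Nfic. Each window runs from 250 bases before to 50 bases after an annotated start. Of these, 3 are printed because they differ in open chromatin and in the core. They are a start in a weak open interval with no core, a start with a core wholly inside a stronger open interval, and a start with 2 cores outside any open interval. Capitals mark the letters TTGGC or its reverse complement GCCAA.
Nfia, chr4:97581693-97581992, plus strand: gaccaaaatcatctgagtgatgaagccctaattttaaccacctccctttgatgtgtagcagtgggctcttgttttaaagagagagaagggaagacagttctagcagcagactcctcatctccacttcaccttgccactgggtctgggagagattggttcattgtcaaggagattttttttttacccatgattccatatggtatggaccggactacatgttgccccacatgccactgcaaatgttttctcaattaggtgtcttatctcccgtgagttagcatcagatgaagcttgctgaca
Nfix, chr8:84775779-84776078, minus strand: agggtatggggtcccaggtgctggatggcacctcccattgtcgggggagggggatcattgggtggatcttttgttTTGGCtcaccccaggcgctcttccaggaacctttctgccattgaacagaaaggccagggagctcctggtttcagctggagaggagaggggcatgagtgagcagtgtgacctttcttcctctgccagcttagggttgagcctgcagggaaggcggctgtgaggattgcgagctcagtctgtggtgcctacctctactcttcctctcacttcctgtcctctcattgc
Nfix, chr8:84772826-84773125, minus strand: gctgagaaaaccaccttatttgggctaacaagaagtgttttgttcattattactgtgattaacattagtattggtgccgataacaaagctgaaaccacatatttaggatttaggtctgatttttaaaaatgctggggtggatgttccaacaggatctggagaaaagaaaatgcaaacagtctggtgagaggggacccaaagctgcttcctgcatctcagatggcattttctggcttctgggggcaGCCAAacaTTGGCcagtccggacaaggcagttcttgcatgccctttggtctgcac
The Nfia window has a GC content of 44.7% and overlaps an open interval with a fold of 3.03 over background by 289 bases. That interval is weak, with a -log10 q, the authors' significance value, of 0.99. The Nfix window at chr8:84775779-84776078 lies with all 300 bases in an interval with a fold of 5.06 and a -log10 q of 4.29, and holds 1 core. The Nfix window at chr8:84772826-84773125 overlaps none and holds 2 cores, 1 on each strand. On either strand the core occurs in 46.7% of all 32851 promoter windows of this length. None of the 6 family windows holds the full palindrome, which occurs in 0.0365% of all windows. A match of these letters describes the sequence and is not a binding site.

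The droplet libraries held 4955 cells and 11544233 unique molecular identifiers (UMIs, each a tagged molecule) for the dpi 25 tumour, 6054 cells and 51194749 UMIs for the dpi 35 tumour, 3184 cells and 8166699 UMIs for PDGFRa-GFP cortex, and 815 cells and 4196024 UMIs for hGFAP-GFP cortex. The median cell had 2063 UMIs at dpi 25, 6582 at dpi 35, 2014 in PDGFRa-GFP cortex and 4167 in hGFAP-GFP cortex. No barcode was shared between libraries. Levels are counts per 1e+06 UMIs (CPM), summed over cells; a UMI stands for a molecule whatever the transcript's length. Intervals in brackets are 95% intervals of counting error only and do not cover differences between animals. A sum over a library cannot tell fewer expressing cells from less RNA per cell. Cells were clustered without the 4 genes, and clusters were named from marker genes.

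Nfib was the most abundant member in 3 of the 4 droplet libraries, although its interval overlaps that of Nfia in the dpi 25 tumour. It stood at 229 CPM (220.0 to 237) in the dpi 25 tumour and 94.5 CPM (91.9 to 97.2) in the dpi 35 tumour, against 994 CPM (973 to 1016) in PDGFRa-GFP cortex and 1678 CPM (1640 to 1718) in hGFAP-GFP cortex. Nfix followed the same order of tumour below cortex, with 57.3 CPM (53.1 to 61.9) in the dpi 25 tumour and 94.4 CPM (91.8 to 97.1) in the dpi 35 tumour, against 357 CPM in PDGFRa-GFP cortex and 719 CPM in hGFAP-GFP cortex. Nfia was at 215 CPM (207 to 224) in the dpi 25 tumour, 127 CPM in the dpi 35 tumour, 262 CPM (251 to 273) in PDGFRa-GFP cortex and 752 CPM in hGFAP-GFP cortex. The dpi 25 tumour and PDGFRa-GFP cortex are neighbours in that order, and their intervals do not overlap. Nfic was low everywhere, at 74.9 CPM in the dpi 25 tumour, 74.6 CPM in the dpi 35 tumour, 45.6 CPM in PDGFRa-GFP cortex and 92.0 CPM in hGFAP-GFP cortex. The Nfic intervals of the tumour libraries overlap, 70.0 to 80.1 CPM at dpi 25 and 72.2 to 77.0 CPM at dpi 35.

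The make-up of the family differed with these levels. Nfib made up 39.7% of the NFI UMIs in the dpi 25 tumour and 24.2% in the dpi 35 tumour, against 59.9% in PDGFRa-GFP cortex and 51.8% in hGFAP-GFP cortex. In the dpi 35 tumour Nfia led, with 32.5% of the NFI UMIs. Nfic made up 13.01% at dpi 25 and 19.1% at dpi 35, against 2.75% in PDGFRa-GFP cortex and 2.84% in hGFAP-GFP cortex. When every cell was reduced to 1000 UMIs, at least 1 member was seen in 40.99% of dpi 25 cells and 30.9% of dpi 35 cells, against 70.5% in PDGFRa-GFP cortex and 84.9% in hGFAP-GFP cortex. This left out 500 PDGFRa-GFP cells with fewer UMIs and no cell of the other libraries. Without that reduction the shares were 65.9% of dpi 25 cells, 82.1% of dpi 35 cells, 84.8% in PDGFRa-GFP cortex and 98.9% in hGFAP-GFP cortex. At least 3 members in 1 cell, at 1000 UMIs, were seen in 48 of 4955 dpi 25 cells and 35 of 6054 dpi 35 cells, against 122 of 2684 cells in PDGFRa-GFP cortex and 176 of 815 in hGFAP-GFP cortex.

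**Figure D1:**
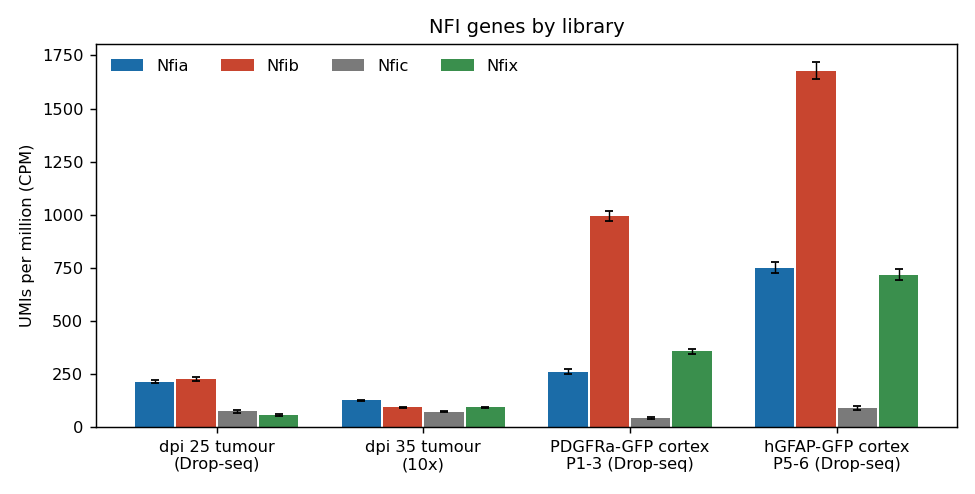
Bars give CPM of the 4 NFI genes (colours) in each droplet library, and whiskers give the 95% counting interval. Nfib is the tallest bar in both cortex libraries, at 994 CPM in PDGFRa-GFP and 1678 CPM in hGFAP-GFP, while Nfia and Nfib are of similar height in the dpi 25 tumour, at 215 and 229 CPM.

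The first comparison asked how NFI transcripts in the dpi 25 tumour relate to normal cortex cells measured by the same method. Over PDGFRa-GFP cortex, Nfix was 6.23-fold lower, with a log2 ratio of -2.64 (-2.76 to -2.52), and Nfib 4.35-fold lower, with a log2 ratio of -2.12 (-2.18 to -2.06). Nfia had a log2 ratio of -0.28 (-0.37 to -0.20) and Nfic of 0.72 (0.54 to 0.90). Thus 2 of 4 members were at least 2-fold lower in the tumour and none was 2-fold higher. Over all 14300 genes with at least 20 summed UMIs, 16.8% were at least 2-fold lower and 16.6% at least 2-fold higher. The family sum was 576 CPM in the tumour against 1659 CPM in PDGFRa-GFP cortex, a log2 ratio of -1.53 (-1.57 to -1.48).

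Over hGFAP-GFP cortex, 3 of 4 members were at least 2-fold lower in the dpi 25 tumour, where 20.6% of 14236 genes were at least 2-fold lower and 17.3% at least 2-fold higher. The log2 ratio was -3.65 (-3.77 to -3.53) for Nfix, -2.88 (-2.94 to -2.81) for Nfib, -1.81 (-1.88 to -1.73) for Nfia and -0.30 (-0.47 to -0.12) for Nfic. This comparison shares its tumour library with the one over PDGFRa-GFP cortex, so they are not independent. With 1 library on each side, the spread between animals is not known for any of these ratios.

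Cell make-up moved with these ratios, since GABAergic interneuron-like cells were 29.7% of the PDGFRa-GFP library and 14.97% of the hGFAP-GFP library, and the dpi 25 tumour had no cluster of that class. A narrower comparison was therefore added after these values were seen. It set the 4397 dpi 25 cells outside the myeloid-like, endothelial-like, oligodendrocyte-like and mural or fibroblast-like clusters against OPC-like cells of the cortex. The tumour side kept its 908 cycling-like cells, while cycling-like clusters of the cortex were left out, so the sides differ in cycling cells. Its other 3489 cells lay in unnamed clusters, so they were identified neither as malignant nor as OPC-like. An unnamed cluster led by Ifit3, Ifit1 and Rsad2 was among these, with 31.2 CPM of Nfix. Tumour cells below means all cells of this set. In this comparison Nfib stood at 244 CPM in the tumour cells, against 429.7 CPM in PDGFRa-GFP OPC-like cells and 385 CPM in hGFAP-GFP OPC-like cells. The log2 ratios of Nfib were -0.82 (-0.94 to -0.70) over PDGFRa-GFP and -0.66 (-0.90 to -0.41) over hGFAP-GFP. The Nfib difference over PDGFRa-GFP was thus smaller in this comparison than over the whole library and no longer reached 2-fold. Nfix stayed past 2-fold, at 62.9 CPM in the tumour cells against 212 CPM in PDGFRa-GFP and 208 CPM in hGFAP-GFP OPC-like cells. Its log2 ratios were -1.76 (-1.95 to -1.56) and -1.73 (-2.07 to -1.37) over those cells. Nfia, past 2-fold over the whole hGFAP-GFP library, had a log2 ratio of -0.68 (-0.92 to -0.42) over its OPC-like cells. It was at 232 CPM in the tumour cells, against 274 CPM in PDGFRa-GFP and 372 CPM in hGFAP-GFP OPC-like cells, and Nfic at 68.7 CPM in the tumour cells, against 36.2 CPM in PDGFRa-GFP and 52.8 CPM in hGFAP-GFP OPC-like cells. The Nfic log2 ratio was 0.92 (0.54 to 1.33) over PDGFRa-GFP and 0.38 (-0.26 to 1.10) over hGFAP-GFP OPC-like cells, so that over hGFAP-GFP its sign is opposite to that of the whole libraries and not distinguishable from no difference.

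Outside the named host classes, Nfib and Nfix spanned narrower ranges among clusters of the dpi 25 tumour than among those of PDGFRa-GFP cortex. Over the 9 such dpi 25 clusters of at least 30 cells, Nfib ran from 169.6 to 290.3 CPM and Nfix from 31.2 to 77.4 CPM. Over the 11 such clusters of PDGFRa-GFP cortex, Nfib ran from 327 to 2248 CPM and Nfix from 98.9 to 837 CPM, so that the ranges of the 2 libraries did not overlap for either gene. Nfia did overlap, at 166 to 286 CPM in the tumour clusters against 182 to 333 CPM in the cortex clusters. These cortex clusters leave out the oligodendrocyte-like, astrocyte-like and choroid plexus-like ones. With those kept, the lowest PDGFRa-GFP cluster had 122 CPM of Nfib and 45.8 CPM of Nfix, so the ranges of Nfib and Nfix then overlapped too. Over all 14 dpi 25 clusters of at least 30 cells, host classes kept, Nfib ran from 46.96 to 436 CPM and Nfix from 3.72 to 77.4 CPM. Cycling-like cells, which carry genes of DNA replication and mitosis, were found in both libraries and gave ratios like those of the whole libraries. In cycling-like cells Nfib was at 255 CPM in 908 tumour cells against 1114 CPM in 641 PDGFRa-GFP cells, and Nfix at 77.4 CPM in the tumour cells against 455 CPM in the PDGFRa-GFP cells. The cycling-like PDGFRa-GFP clusters themselves ranged from 597 to 1382 CPM for Nfib. In oligodendrocyte-like cells, 81 of the tumour and 38 of PDGFRa-GFP cortex, this was not so. The log2 ratio there was -0.92 (-1.88 to 0.03) for Nfib and -0.35 (-1.80 to 1.13) for Nfix, neither 2-fold lower nor distinguishable from no difference at this depth. It was 1.82 (0.53 to 3.37) for Nfic, from 30 UMIs in the tumour and 6 in the cortex cells.

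The cortex libraries differed from each other as well. Over hGFAP-GFP cortex, PDGFRa-GFP cortex had log2 ratios of -1.52 (-1.60 to -1.44) for Nfia, -1.01 (-1.08 to -0.93) for Nfix, -1.01 (-1.22 to -0.80) for Nfic and -0.76 (-0.80 to -0.71) for Nfib. So 3 of 4 members were at least 2-fold lower in PDGFRa-GFP cortex, where 12.8% of 13607 genes were at least 2-fold lower and 5.03% at least 2-fold higher. Nfix and Nfic only just passed. Nfix fell short at 1000 UMIs per cell (-0.98), as a mean over cells (-0.97) and without the immune, vascular, neuronal, ependymal and choroid plexus clusters (-0.70). Nfic fell short without those clusters (-0.83), which left Nfia as the member past 2-fold. Line and age cannot be told apart here, since the PDGFRa-GFP pups were younger.

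Within matched classes the difference was smaller for some members and classes. OPC-like cells of PDGFRa-GFP cortex had 429.7 CPM of Nfib and 212 CPM of Nfix, against 385 CPM of Nfib and 208 CPM of Nfix in those of hGFAP-GFP cortex. The log2 ratios were 0.16 (-0.10 to 0.43) for Nfib and 0.03 (-0.33 to 0.40) for Nfix, so neither was distinguishable at this depth. In the other matched classes both were lower in PDGFRa-GFP cells. The log2 ratios of Nfib and Nfix were -0.19 and -0.43 in cycling-like and -0.45 and -0.64 in GABAergic interneuron-like cells. They were -0.67 and -0.55 (-1.27 to 0.11) in astrocyte-like and -1.93 and -1.65 in excitatory neuron precursor-like cells. Nfia was lower in PDGFRa-GFP cells in each of the 5 matched classes, with log2 ratios of -0.44 in OPC-like, -0.63 in astrocyte-like, -1.16 in GABAergic interneuron-like, -1.19 in cycling-like and -3.48 in excitatory neuron precursor-like cells. That last class was led by Snhg11, Meg3 and Reln in PDGFRa-GFP cortex but by Neurod1, Pcp4 and Sema3c in hGFAP-GFP cortex, so it holds different clusters in each.

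By class, the highest NFI levels of the series were in neuronal classes. In the 82 excitatory neuron precursor-like cells of hGFAP-GFP cortex, Nfib reached 6055 CPM (5810 to 6307), Nfix 2628 CPM (2467 to 2796) and Nfia 2028 CPM (1887 to 2176). At 1000 UMIs, Nfib was seen in all 82 of these cells. In GABAergic interneuron-like cells, Nfib was high while Nfia was not. PDGFRa-GFP cells of that class had 2143 CPM of Nfib (2070 to 2217), 585 CPM of Nfix and 207 CPM of Nfia, and hGFAP-GFP cells had 2925 CPM of Nfib, 912 CPM of Nfix and 461 CPM of Nfia. In the dpi 35 tumour, a cluster of 30 cells that could not be named and was led by Stmn2, Tubb3 and Sox11, genes of young neurons, had 809 CPM of Nfib and 911 CPM of Nfix, the highest levels among the clusters of that library.

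The 19 astrocyte-like cells of the dpi 35 tumour had 463 CPM of Nfia (346 to 607), 240.2 CPM of Nfib (158 to 349.5) and 196 CPM of Nfix (123 to 296). Astrocyte-like cells of both cortex libraries had about equal Nfia and Nfib and less Nfix. The 122 astrocyte-like cells of hGFAP-GFP cortex had 798 CPM of Nfia (727 to 874), 832 CPM of Nfib (760 to 910) and 244 CPM of Nfix. The 45 of PDGFRa-GFP cortex had 515 CPM of Nfia, 523 CPM of Nfib and 167 CPM of Nfix. In the cortex Nfia was higher in astrocyte-like cells than in OPC-like cells of the same library by counting intervals that do not overlap, 400 to 653 against 249 to 300 CPM in PDGFRa-GFP and 727 to 874 against 313 to 439 CPM in hGFAP-GFP. Ependymal-like cells of hGFAP-GFP cortex were close to the astrocyte-like cells, with 789.6 CPM each of Nfia and Nfib. Along the oligodendrocyte lineage of PDGFRa-GFP cortex, Nfib was at 167 CPM (107 to 248) in 38 oligodendrocyte-like cells and 429.7 CPM (398 to 463) in OPC-like cells. Nfia was at 104 CPM (58.4 to 172) in the oligodendrocyte-like cells and 274 CPM (249 to 300) in the OPC-like cells, again with intervals that do not overlap.

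Nfic took another pattern. Over all clusters of at least 30 cells, Nfic was highest in both cortex libraries in a cluster led by histone genes such as Hist1h2ao and Hist1h2ap. Its level there was 94.7 CPM in PDGFRa-GFP and 152 CPM in hGFAP-GFP cortex. In the dpi 25 tumour such a cluster was highest outside the named host classes, at 92.2 CPM. The named class with the most Nfic differed between libraries and with the clustering. Among named classes of PDGFRa-GFP cortex with at least 30 cells Nfic was highest in cycling-like cells, at 49.6 CPM, and in hGFAP-GFP cortex in ependymal-like cells, at 132 CPM. At a clustering resolution of 2, primitive OPC-like cells were highest in both, at 88.9 CPM in PDGFRa-GFP and 150.3 CPM in hGFAP-GFP cortex. In the dpi 25 tumour it was highest in 44 mural or fibroblast-like cells, at 235 CPM (155 to 342) from 27 UMIs, and in 81 oligodendrocyte-like cells, at 147 CPM (99.4 to 210). In the dpi 35 tumour it reached 153 CPM (127 to 183) in ependymal-like cells and 183 CPM in the 99 cells of an oligodendrocyte-like cluster with Apod and Ptgds, genes of mature oligodendrocytes, among its leading genes. That cluster also had 243 CPM of Nfix, against 102 CPM in the other oligodendrocyte-like cluster, led by Sirt2, Cnp and Tubb4a. GABAergic interneuron-like cells of PDGFRa-GFP cortex were at the low end, with 20.9 CPM of Nfic (14.3 to 29.5). In myeloid-like cells, which hold microglia and macrophages, Nfic was the most abundant member in both tumours, at 103 CPM (82.9 to 127) in 349 dpi 25 cells and 82.5 CPM (78.9 to 86.4) in 2480 dpi 35 cells. At dpi 25 that interval overlaps the one of Nfia, 71.6 to 113 CPM.

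Those myeloid-like cells had little Nfib. It was at 46.96 CPM in dpi 25 and 7.77 CPM in dpi 35 myeloid-like cells, and at 1000 UMIs it was seen in 4.01% (2.21 to 6.64) and 1.05% (0.69 to 1.53) of them. These shares were taken as the background of free RNA. This is an assumption, since free RNA was not measured and Nfib of the myeloid-like cells themselves cannot be told apart from it. The 19.7% of all dpi 25 cells and 8.28% of all dpi 35 cells with Nfib, myeloid-like cells included, lie above these shares. Median depths were 2166 UMIs in myeloid-like cells and 2063 in all cells at dpi 25, and 7397 and 6582 at dpi 35. Myeloid-like cells were 40.96% of the dpi 35 library and 7.04% of the dpi 25 library, and outside the host classes Nfib stood at 165 CPM at dpi 35 and 244 CPM at dpi 25. Endothelial-like cells, which line blood vessels, had Nfib and little Nfix in both tumours. They had 436 CPM of Nfib (360.2 to 522) and 3.72 CPM of Nfix, from 1 UMI (0.09 to 20.7), at dpi 25. At dpi 35 they had 222 CPM of Nfib (208 to 237) and 21.9 CPM of Nfix (17.6 to 27.03), seen in 64 of 230 cells.

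The tumour time points were measured by different methods, Drop-seq at dpi 25 and 10x at dpi 35, so their values are set side by side with no ratio. Cycling-like cells had 286 CPM of Nfia, 255 CPM of Nfib and 77.4 CPM of Nfix at dpi 25, and 285 CPM of Nfia, 231 CPM of Nfib and 206 CPM of Nfix at dpi 35. Over all clusters outside the named host classes, Nfia was at 232 CPM at dpi 25 and 221 CPM at dpi 35, Nfib at 244 CPM at dpi 25 and 165 CPM at dpi 35, and Nfix at 62.9 CPM at dpi 25 and 158 CPM at dpi 35. Method, time point and cell make-up change together between these sets, so they cannot be told apart for any member. The 2913 cells of the dpi 35 set still include unnamed clusters led by Ftl1 and Hmox1 or by Cxcl10 and Isg15, with 49.7 and 43.8 CPM of Nfia.

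**Figure D2:**
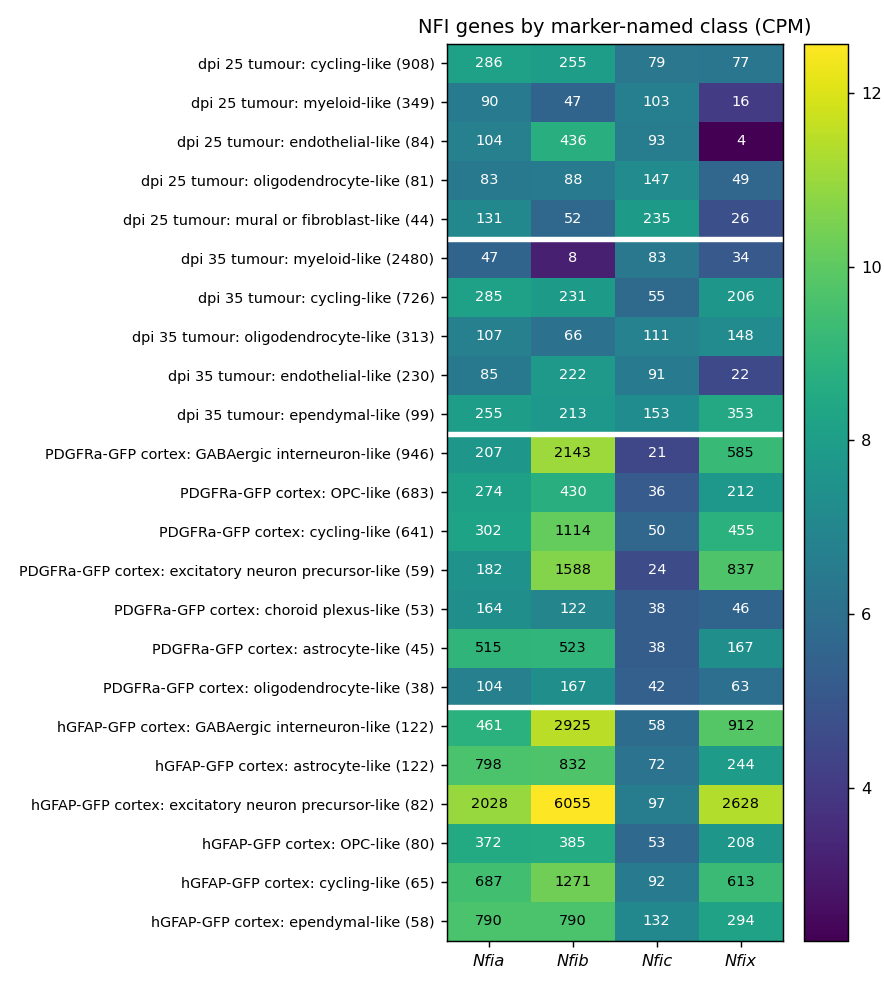
Rows are marker-named classes of at least 30 cells (number of cells in brackets) in each library, columns are the NFI genes, numbers are CPM and colour is log2(CPM + 1). The brightest row is the excitatory neuron precursor-like class of hGFAP-GFP cortex, and the darkest Nfib cell is the myeloid-like class of the dpi 35 tumour.

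Across the 52 clusters of at least 50 cells, Nfia, Nfib and Nfix varied together, and Nfic showed no such relation over all clusters. Spearman's rho was 0.80 for Nfia with Nfib, 0.80 for Nfib with Nfix and 0.77 for Nfia with Nfix, while that of Nfic with the other members lay between -0.13 and 0.00. These clusters share libraries, depth and cell types, so the values are descriptions. Within single libraries the pairs came apart. Nfib with Nfix gave 0.94 over 12 clusters of PDGFRa-GFP cortex and 0.97 over 9 clusters of hGFAP-GFP cortex, against 0.21 over 11 clusters of the dpi 25 tumour and 0.69 over 20 clusters of the dpi 35 tumour. Nfia with Nfib gave 0.10 in each cortex library, 0.27 at dpi 25 and 0.84 at dpi 35. Nfia with Nfic gave 0.64 in PDGFRa-GFP cortex, 0.20 in hGFAP-GFP cortex, -0.59 at dpi 25 and -0.10 at dpi 35.

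Of 9591 genes compared over the same clusters, the ones closest to Nfib were Rtf1, with a rho of 0.95, Tcf4, Mtf2, Smarca4 and Zc3h13. Tcf4 is a helix-loop-helix transcription factor and Smarca4 an ATPase of chromatin remodelling. The clusters within each library were also used to choose the genes named here, so values within libraries are no separate check. Tcf4 had a rho with Nfib of 0.94 within PDGFRa-GFP cortex, 0.90 within hGFAP-GFP cortex, 0.44 at dpi 25 and 0.77 at dpi 35. Among the genes closest to Nfix were Zbtb20, a zinc finger repressor, with a rho of 0.92, Dpysl5, Amer2 and Dnajc7. Dpysl5, a growth cone protein, had the rho of 0.93 in PDGFRa-GFP cortex, 0.97 in hGFAP-GFP cortex, 0.69 at dpi 25 and 0.85 at dpi 35. Nfia was closest to Msi1, an RNA-binding protein of neural progenitors, with a rho of 0.88, then to Cbx3, Arhgap21, Setbp1 and Rbm26. Msi1 had only 0.18 within hGFAP-GFP cortex and 0.86 within the dpi 35 tumour. Nfic had no close match, the highest being Gins4 with 0.64, then Slc43a3, Ccdc122, Ttyh2 and Hdlbp.

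**Figure D3:**
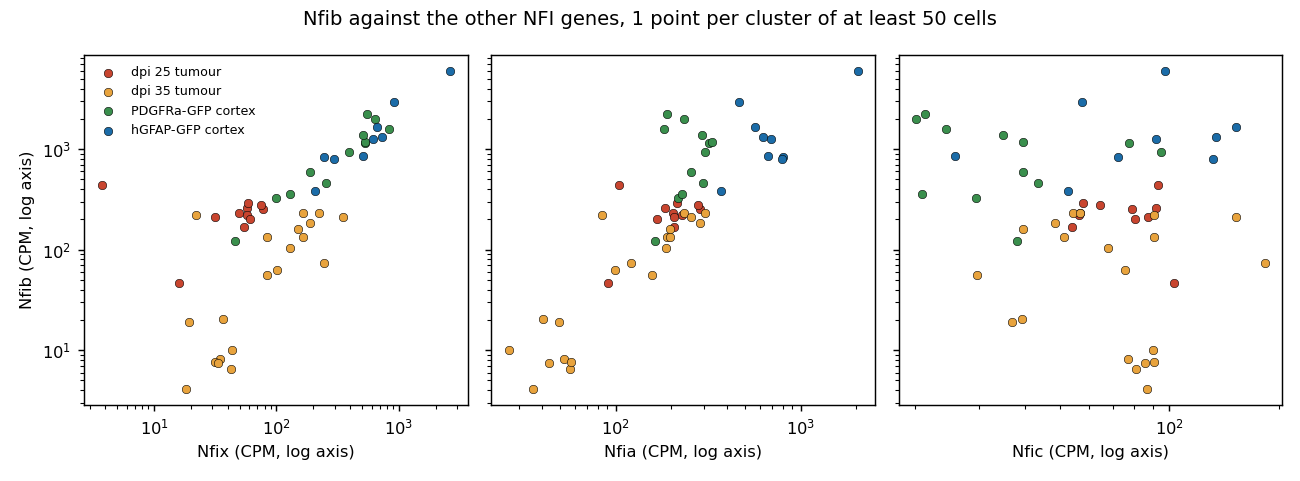
Each point is a cluster of at least 50 cells, coloured by library, with CPM of Nfib (vertical) against Nfix, Nfia and Nfic (horizontal) on log axes. Over all 52 clusters Spearman's rho is 0.80 for Nfix and for Nfia and -0.13 for Nfic. The dpi 25 points include the myeloid-like cluster, at 46.96 CPM of Nfib, and the endothelial-like cluster, at 436 CPM of Nfib and 3.72 CPM of Nfix.

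The C1 cells gave the same genes with full-length reads, in TPM, a share of transcripts corrected for length. They asked how the members differ with age within each line. The tables of the lines were normalized separately, so no ratio is given between lines. In PDGFRa-GFP cells, Nfib averaged 563 ± 811 TPM at P6 (SD, n = 53 cells) and 997 ± 878 TPM at P3 (SD, n = 60 cells), a log2 ratio of -0.82. Its lowest, median and highest cells had 0.22, 322 and 3725 TPM at P6, and 0.29, 829.6 and 3981 TPM at P3. The spread between cells was as large as the difference between ages, and the cells of the ages overlapped over nearly the whole range. Nfix averaged 203 TPM at P6 and 364 TPM at P3, a log2 ratio of -0.84, with medians of 42.2 TPM at P6 and 147 TPM at P3. Nfia differed little, at 246 TPM at P6 and 237 TPM at P3. By the ratio of means no member was 2-fold apart in this line, while 33.9% of 15737 genes were at least 2-fold higher and 20.5% at least 2-fold lower at P6. By the difference of mean log2(TPM + 1), Nfib at -1.53 and Nfix at -1.71 were past 2-fold, so that call depends on the scale.

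In hGFAP-GFP cells Nfib and Nfix went the other way. Nfib averaged 1096 ± 1127 TPM at P4 to P6 (SD, n = 61 cells) and 463 ± 637 TPM at P3 (SD, n = 49 cells), a log2 ratio of 1.24. Its lowest, median and highest cells had 0.13, 613 and 5074 TPM at P4 to P6, and 0, 334 and 4286 TPM at P3. Nfix averaged 271 TPM at P4 to P6 and 86.8 TPM at P3, a log2 ratio of 1.63, with medians of 100.2 TPM at P4 to P6 and 10.1 TPM at P3. Nfia was again level, at 529.7 TPM at P4 to P6 and 527 TPM at P3. The 2 members at least 2-fold higher stand beside 25.7% of 12564 genes that were, and 26.1% that were at least 2-fold lower. Each set is 1 sample with no animals named, so neither these ratios nor the contrast between lines was tested.

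Cell classes moved with age in these sets. By markers, 5 of 53 P6 and 35 of 60 P3 cells of PDGFRa-GFP were GABAergic interneuron-like, and 30 at P6 and 12 at P3 were OPC-like. Within OPC-like cells, Nfib averaged 269 TPM at P6 and 233 TPM at P3, and Nfix 70.0 TPM at P6 and 107 TPM at P3. Within GABAergic interneuron-like cells, Nfib averaged 2264 TPM at P6 and 1427 TPM at P3, and Nfix 874 TPM at P6 and 485 TPM at P3. So the lower Nfib mean of the whole P6 set was not seen within either class. In hGFAP-GFP cells, 15 at P4 to P6 and 2 at P3 were GABAergic interneuron-like, 5 at P4 to P6 and 1 at P3 excitatory neuron precursor-like, and 12 at P4 to P6 and 23 at P3 astrocyte-like. In the astrocyte-like cells Nfib averaged 397 TPM at P4 to P6 and 359 TPM at P3, and Nfia 448 TPM at P4 to P6 and 518 TPM at P3. Nfix averaged 63.2 TPM in these cells at P4 to P6 (median 23.9 TPM) and 8.49 TPM at P3 (median 3.5 TPM). At 10 TPM or more it was found in 8 of 12 astrocyte-like cells at P4 to P6, 66.7% (34.9 to 90.1), and in 7 of 23 at P3, 30.4% (13.2 to 52.9), with overlapping intervals. A class here is a count of markers in a cell, and 4 of the 12 and 6 of the 23 astrocyte-like cells led by 1 marker only.

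At a level of 10 TPM, Nfia was nearly universal in C1 cells. It was found in all 53 P6 cells of PDGFRa-GFP (93.3% to 100%) and in 93.3% of the P3 cells, and in 95.1% of hGFAP-GFP cells at P4 to P6 and 100% at P3. Nfic was the rarest, in 16.98% of P6 and 13.3% of P3 PDGFRa-GFP cells, and in 21.3% of hGFAP-GFP cells at P4 to P6 and 22.4% at P3. The commonest combination was Nfia, Nfib and Nfix without Nfic, in 24 of 53 P6 and 35 of 60 P3 cells in the PDGFRa-GFP line and in 34 of 61 P4 to P6 cells in the hGFAP-GFP line. At P3 in hGFAP-GFP, 17 of 49 cells had it and 18 had Nfia and Nfib alone. Only 2 cells, both hGFAP-GFP at P4 to P6, had no member at that level. Nfib and Nfix varied together from cell to cell, with Spearman's rho of 0.60 in PDGFRa-GFP at P6, 0.39 at P3, 0.57 in hGFAP-GFP at P4 to P6 and 0.25 at P3. The labels do not say which cells of a set were prepared together, and the read depth of the cells is unknown. The median number of detected genes was 5591 in PDGFRa-GFP at P6 and 4125 at P3, and 3405 in hGFAP-GFP at P4 to P6 and 3768 at P3, and the part of this number in the differences was not tested.

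**Figure D4:**
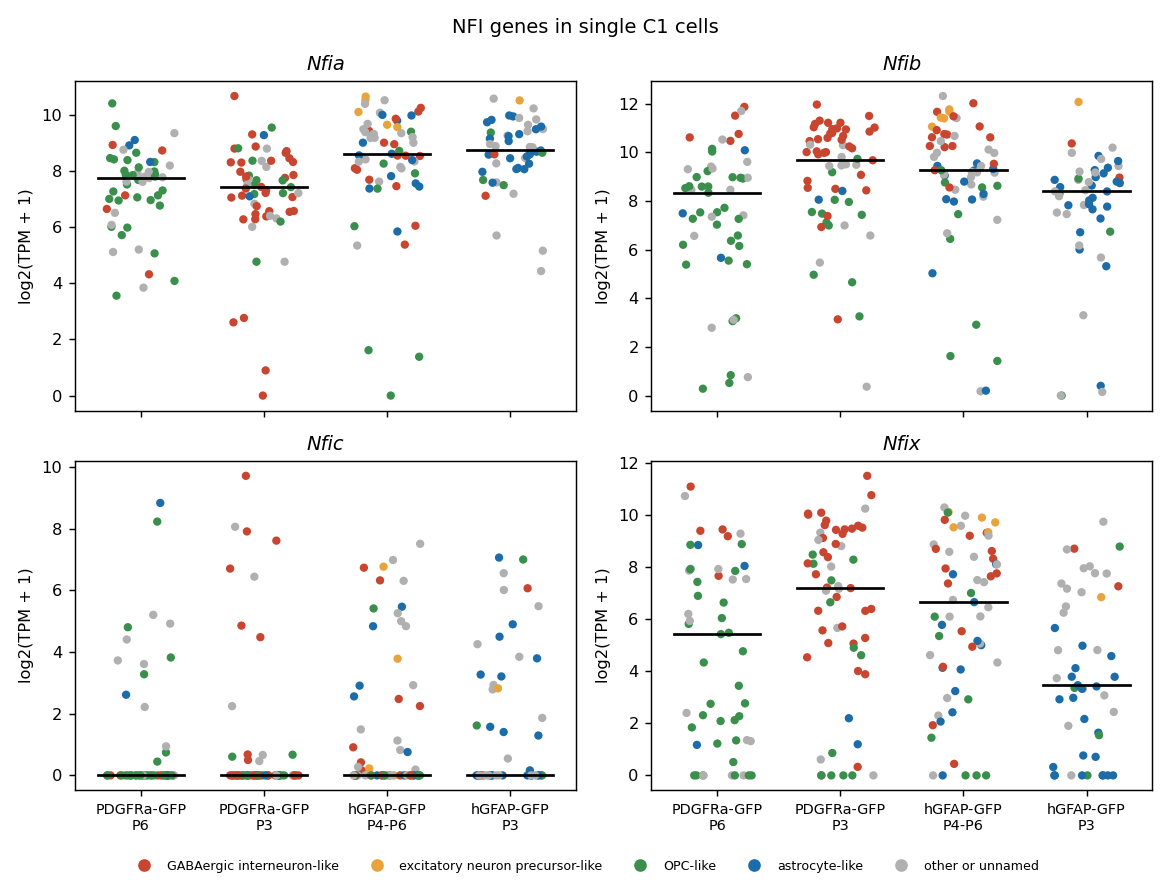
Each point is a C1 cell, with log2(TPM + 1) of an NFI gene on the vertical axis, the set on the horizontal axis and colour for the marker class; black lines are medians. Nfib and Nfix are high in GABAergic interneuron-like cells (red), and the median of Nfic is 0 in all 4 sets.

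A list of 24 genes linked to NFI factors, as partners, upstream regulators or targets, was followed beside the members. It holds glial genes under NFI control and also genes reported as repressed or bound by NFI, so it has no single direction. In the dpi 25 tumour over PDGFRa-GFP cortex, 5 of its 22 measured genes were at least 2-fold higher and 6 at least 2-fold lower, with a median log2 ratio of -0.15 against -0.01 for all genes, of which 16.6% were higher and 16.8% lower. The lower ones included Hes5, a Notch target, at 2.43 CPM in the tumour against 326 CPM in PDGFRa-GFP cortex, Sox9, which acts upstream of Nfia, at 70.6 CPM against 151 CPM, and Ezh2, a histone methyltransferase, at 209 CPM against 482 CPM. The higher ones included Cdkn1a, a brake of the cell cycle, at 209.5 CPM in the tumour against 21.2 CPM, and Stat3, at 108 CPM against 47.4 CPM. The astrocyte genes Gfap and Aldh1l1 were low in both, Gfap at 14.2 CPM in the tumour against 4.53 CPM and Aldh1l1 at 1.56 CPM against 8.33 CPM. Over hGFAP-GFP cortex, 4 of 22 were at least 2-fold higher and 11 at least 2-fold lower in the tumour, with a median of -1.19 against 0.01 for all genes, of which 17.3% were higher and 20.6% lower. In PDGFRa-GFP over hGFAP-GFP cortex, 2 of 23 were higher and 9 lower, with a median of -0.76 against 0.04 for all genes, of which 5.03% were higher and 12.8% lower. Astrocyte genes were among the 9, with Aqp4 at 14.8 CPM in PDGFRa-GFP against 236 CPM in hGFAP-GFP cortex. In hGFAP-GFP C1 cells 1 of 22 list genes was at least 2-fold higher and 12 lower at P4 to P6 than at P3. The median log2 ratio was -1.12 against 0.02 for all genes, of which 25.7% were higher and 26.1% lower. In PDGFRa-GFP C1 cells 6 of 22 were higher and 2 lower at P6, with a median of 0.80 against 0.32 for all genes, of which 33.9% were higher and 20.5% lower. The share of higher list genes there was below that of all genes. Fabp7, a radial glial fatty acid binding protein, averaged 3218 TPM at P4 to P6 and 16879 TPM at P3 in hGFAP-GFP cells. In those sets 12 of 61 cells at P4 to P6 and 23 of 49 at P3 were astrocyte-like. The part of this in the list ratios was not tested.

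In the pooled open chromatin of PDGFRa-GFP cells (mm10), all 4 genes carried many open intervals, out of 76321 intervals with 93170 summits. The fold over background is the authors' value for each peak. The list was used as deposited and reaches down to a -log10 q of 0.38, so the counts include weak intervals. Nfia, chr4:97578066-98118876, had 69 intervals in its span of 541 kb, and Nfib, chr4:82290173-82506751, had 28 in 217 kb. Nfix, chr8:84704712-84801238, had 46 in 96.5 kb, and Nfic, chr10:81396191-81431919, had 18 in 35.7 kb. Per 100 kb this comes to 12.8 for Nfia, 12.9 for Nfib, 50.4 for Nfic and 47.7 for Nfix, against a median of 3.18 over 7505 protein-coding spans of at least 30 kb. The rates lie above those of 93.4% of such spans for Nfia, 93.6% for Nfib, 99.9% for Nfic and 99.8% for Nfix. Nfic, the member with the least RNA in PDGFRa-GFP cells, thus had the most intervals per length when all listed intervals were counted. At a -log10 q of at least 5 the spans held 8 intervals for Nfia, 3 for Nfib, 2 for Nfic and 6 for Nfix. The spans of Nfic and Nfix lie in gene-dense surroundings, with 8 protein-coding genes each overlapping or within 50 kb, while Nfia and Nfib have none there.

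The strongest intervals differed in place. For Nfib the strongest, with a fold of 14.2, was chr4:82512741-82513630, 5990 bases beyond the upper end of the span and within Gm11266, a neighbouring predicted gene. The upper end of the Nfib span itself was covered by chr4:82504992-82508668, an interval of 3677 bases with 7 summits and a fold of 7.58, and 0.0537% of all intervals are as wide. For Nfia the strongest was chr4:97772086-97772869, with a fold of 12.6, which lies 194020 bases into the span and also within the lncRNA gene Gm38709. Nfia had 11 intervals in its span at a fold of 5 or more, against 3 for Nfib, 3 for Nfic and 8 for Nfix. Within the Nfix span the strongest were chr8:84793345-84795171, with a fold of 10.1, and chr8:84773459-84775526, with a fold of 9.60 and 5 summits. The interval with 5 summits covers the upstream 202 bases of the Nfix promoter window at chr8:84773361-84773660, but neither the annotated start nor the core of that window. Stronger ones near Nfix and Nfic lay on neighbouring genes, such as Calr with a fold of 16.2 and Fzr1 with 14.7. Within the Nfic span the strongest was chr10:81415895-81417809, with a fold of 8.09. Of the other promoter windows, the Nfix window at chr8:84780033-84780332 overlaps by 30 bases a weak interval with a fold of 3.03 and a -log10 q of 0.99. The Nfic window overlaps none. Of all promoter windows, 42.95% overlap an interval.

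**Figure D5:**
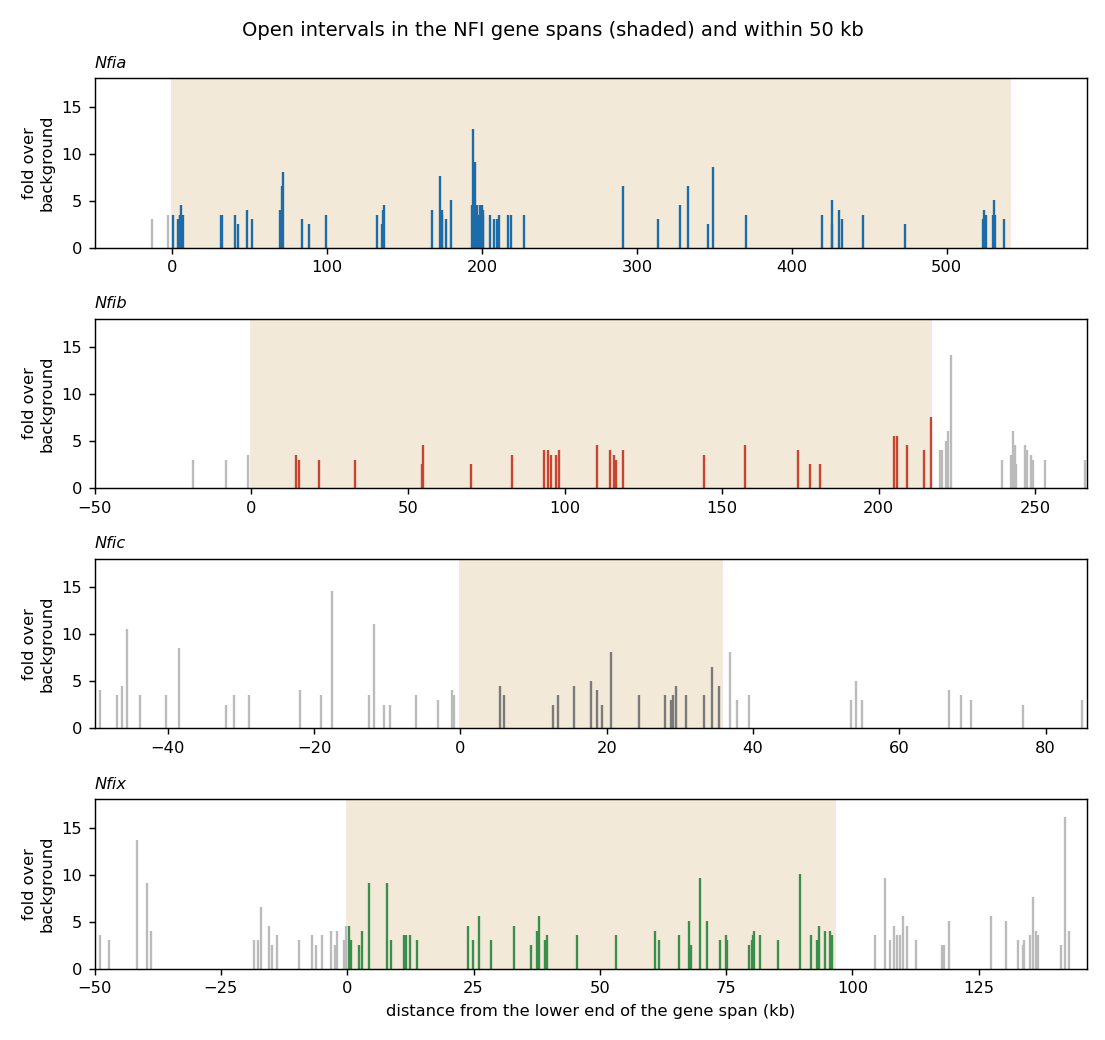
Lines are open intervals of the pooled PDGFRa-GFP list in each NFI span (shaded, coloured lines) and within 50 kb (grey lines), placed by distance from the lower end of the span in kb, with the fold over background as height. The tallest Nfia line, with a fold of 12.6, lies inside the span, while the tallest line of the Nfib panel, with 14.2, lies just above it.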

How the data were processed

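Each droplet library or C1 set was treated as 1 sample, grouped by its title. The strain field of the PDGFRa-GFP C1 cells names hGFAP-gfp, and the stage fields of both ATAC samples and the genotype field of one (hGFAP) disagree with their titles, so the line of those C1 sets and the line and stage of the ATAC samples rest on the titles. Per the labels, the hGFAP-GFP library held 2000 cells and the dpi 25 library 6796, while the deposited tables hold 815 and 4955. For Drop-seq the authors deposited a scaled signal, UMIs per 10000 in each cell. Per the submitters' processing notes, STAR was the aligner. Whole UMIs were recovered by division; within a tolerance of 0.1, 99% or more of the values came out whole in 100% of cells. For 10x the authors deposited UMI counts, and Cell Ranger is named in the submitters' processing notes. For C1 cells they deposited TPM from RSEM, per the submitters' processing notes, in 2 tables of 46523 and 24279 rows; no read counts were used here, so the depth is unknown. The authors deposited 1 pooled peak list with a fold ratio and -log10 q values per peak; the submitters' processing notes name CASAVA, Bowtie2, MACS2 2.12 and HOMER, and the builds mm10 and rn5. Whether counting used strand is not given in the sources used here, so reads of overlapping antisense genes cannot be told apart.

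UMIs were summed over cells and divided by the library total. CPM intervals are exact Poisson, shares are Clopper-Pearson at 95%, and ratio intervals are exact conditional binomial. Genes needed 20 summed UMIs over both libraries, or a mean of 1 TPM in either C1 set, and a pseudocount of 1 was added to C1 means before the log2 ratio. The edgeR (4.0.16) TMM factor was used as an alternative scaling of the summed counts. Cells with at least 200 genes were clustered in scanpy 1.11.5, with 2000 variable genes, 30 components, 15 neighbours and the Leiden method (leidenalg 0.10.2) at resolution 1 with seed 20, leaving out the 4 members. Clusters were given the class that had the most markers among their 50 leading genes, at least 3, with at least 1 and no fewer than any other class among the first 10 genes. This rule was settled after the clusters were seen, and a class is called -like. C1 cells took the class with the most markers at 10 TPM, at least 3. Scrublet called 0 doublets at dpi 25, 125 at dpi 35, 5 in PDGFRa-GFP and 4 in hGFAP-GFP cortex; under 0.5% means that the caller did not work there, and no doublets were removed. Open intervals were counted in RefSeq gene spans and within 50 kb. The named genes are the members, the linked list of 24 genes and the 5 genes of highest Spearman correlation with each member over clusters of at least 50 cells, with at least 20 CPM in at least 3 of them; a gene that met this rule is not reported here. The members, the lists and the comparisons were chosen with earlier results of these data known. The ratio code was tested on simulated data.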

Additional observations from a re-analysis of the deposited data

How the results depend on the processing

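Of 115 alternative values of the 25 log2 ratios, 39 moved. That means outside the counting interval of the main value or, for C1 cells, by at least 0.5. The sign was kept in 111 of the 115. The exceptions are low or near 0: Nfic in PDGFRa-GFP C1 cells at P6 over P3 (-0.77 to 0.06), Nfia (-0.35 to 0.03) and Nfic (-0.14 to 0.20) in hGFAP-GFP C1 cells, and Nfic at dpi 25 over hGFAP-GFP cortex (-0.57 to 0.38). The family ratio at dpi 25 over PDGFRa-GFP cortex was -1.53, against -1.59 at 1000 UMIs per cell, -1.63 as a mean over cells, -1.21 without immune, vascular, neuronal, ependymal and choroid plexus clusters, and -0.65 for cells outside host classes over OPC-like cells, chosen after seeing the data. Over hGFAP-GFP cortex it was -2.49, against -2.56, -2.54, -1.94 and -0.74 in the same order. PDGFRa-GFP over hGFAP-GFP cortex gave -0.97, against -0.90 as a mean over cells and -0.74 without those clusters. The cause was not tested, apart from the cells left out by construction. With a minimum of 100 in place of 20 summed UMIs, fewer genes were counted as 2-fold apart by construction: 1503 in place of 2375 higher and 1444 in place of 2406 lower at dpi 25 over PDGFRa-GFP, 1522 in place of 2930 lower over hGFAP-GFP, and 343 in place of 685 higher and 684 in place of 1741 lower in PDGFRa-GFP over hGFAP-GFP. The class with the highest level of a member changed in 4 of 64 alternatives. At -log10 q of at least 5, intervals in and near Nfia, Nfib, Nfic and Nfix fell to 8, 6, 7 and 14, against 71, 47, 50 and 90. No paired analysis was possible because the C1 numbers only name cells and the results come from no test.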
